A study of Mus musculus with 6 samples.

Results

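The 50 genes described here are interferon-stimulated genes, a set fixed by name: every row of the deposited count table whose gene symbol is on the list was taken, and all 50 of 50 were found among the 57180 genes of the table. All 50 also had enough counts to be tested. They were measured by RNA sequencing of inguinal white adipose tissue (iWAT), the fat pad under the skin of the groin, in 6 libraries. All libraries come from wild-type mice kept on a high-fat diet. The 3 ADISSP libraries are from obese mice given recombinant Adissp, a protein secreted by fat cells, once a day at 68 nmol per kg over 33 days. The 3 Control libraries are from mice on the same diet. The sources used here do not say what the controls received, nor the strain, age or sex. The protocol calls the libraries biological triplicates and all 6 carry the same batch label.

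Interferons are secreted proteins that cells release on sensing viral or misplaced nucleic acid. Type I interferons act through the receptor made of Ifnar1 and Ifnar2, whose kinases Jak1 and Tyk2 activate a complex that holds Stat2 and Irf9. This complex binds a DNA element called the interferon-stimulated response element (ISRE) beside its target genes. Interferon gamma, the product of T and natural killer cells, acts through Ifngr1, Ifngr2, Jak1 and Jak2, and its target genes carry another element, the gamma-activated site (GAS). Many cell types of fat tissue, fat cells and macrophages among them, can respond to these signals.

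Library totals ran from 10357930 to 15658428 counts, and the 50 genes together held 27374 to 56532 counts per library, or 0.238% to 0.394% of the total. Levels are given as CPM, counts per 1e+06 counts after scaling with edgeR's TMM factors, unless TPM is named. At these depths, 3 counts in 1 library are 0.165 to 0.331 CPM. Each change is the log2 of the ADISSP level over the Control level, with n = 3 per group. The test is edgeR's quasi-likelihood test, and adjusted p is its Benjamini-Hochberg value over all 17320 genes tested. Only genes with an adjusted p under 0.05 are said to have risen or fallen.

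Of the 50 genes, 16 (32.0%) rose in ADISSP and 2 (4.0%) fell, while across all tested genes 18.5% were called higher and 16.5% lower. The risen genes were the transcription factor Irf7, the sensor Dhx58, the synthetases Oas1a, Oas3, Oasl1 and Oasl2, the antiviral genes Bst2, Mx2 and Cmpk2, the ubiquitin-like modifier Isg15, the GTPases Gbp2, Gbp3 and Irgm2, and Ifi44, Rtp4 and Lgals3bp. Epsti1 and Sp100 fell. The median log2 fold change of the 50 genes was 0.84, against -0.01 over all tested genes, and 44 of the 50 values were above 0.

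How firmly the risen genes were called varied among them. The 9 genes Irf7, Dhx58, Oas1a, Bst2, Isg15, Gbp3, Ifi44, Rtp4 and Lgals3bp kept their call in each of the 6 fits that leave out 1 library. The other 7 (Oas3, Oasl1, Oasl2, Mx2, Cmpk2, Gbp2 and Irgm2) lost it in at least 1 of them. Of the 9, Lgals3bp was not called with scaling by totals, and neither Lgals3bp nor Dhx58 was called on log2(TPM + 1) or log2(TPM + 0.1). The other 7 of the 9 were called under each of those scalings. All 16 stayed above 0 when libraries were scaled by DESeq2 size factors or by totals alone, and on log2(TPM + 1) and log2(TPM + 0.1). Scaling by totals put the median of all genes at -0.36 and log2(TPM + 1) put it at -0.51, so that changes there are read against those values.

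**Figure D1:**
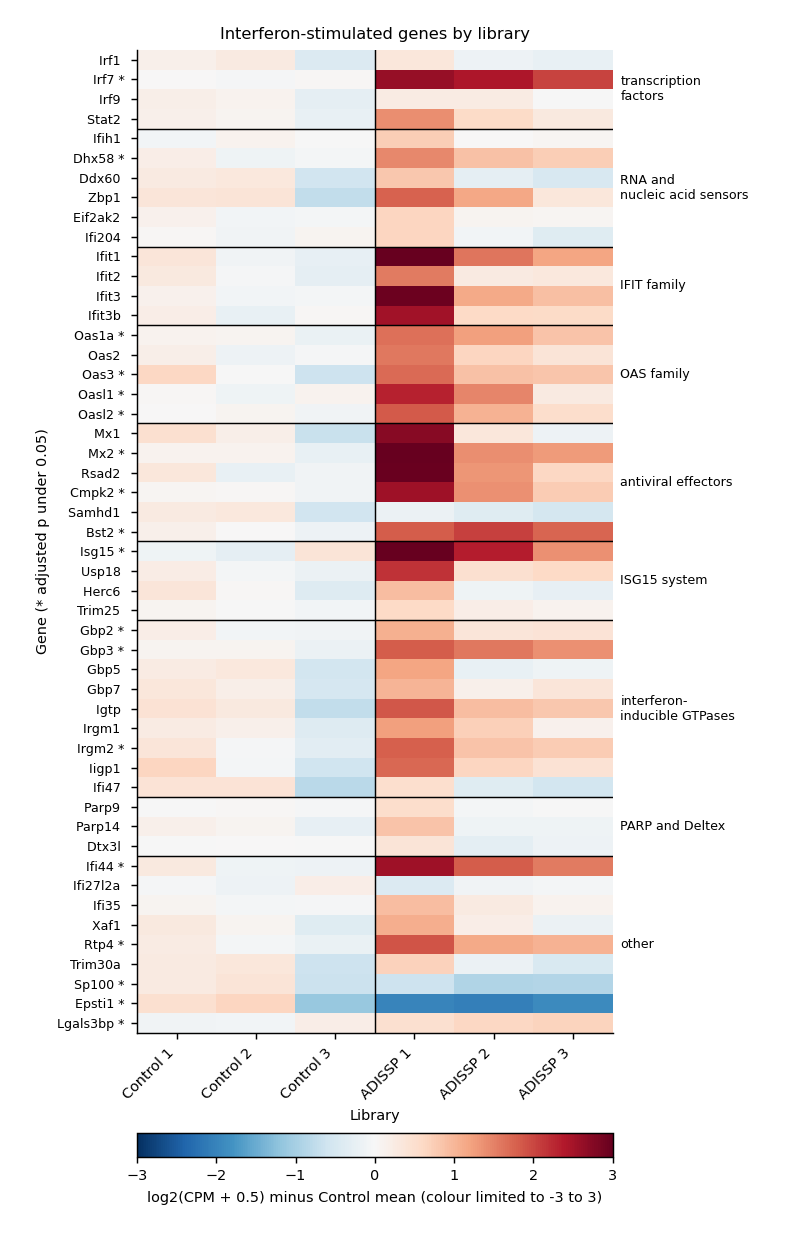
Each row is 1 of the 50 genes, grouped by role, and each column is 1 library; colour is log2(CPM + 0.5) minus the mean of the 3 Control libraries, limited to -3 and 3. ADISSP 1 is the highest ADISSP library in 45 of the 50 genes, and Irf7, Bst2, Gbp3 and Ifi44 are red in all 3 ADISSP columns.

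The ADISSP libraries differed among themselves. ADISSP 1 was the highest of the 3 ADISSP libraries in 45 of the 50 genes (90%), whereas among all tested genes it was the highest in 34.5% of them. ADISSP 2 was the highest in 2 of the genes and ADISSP 3 in 3. The median gene of the 50 stood 1.89-fold higher in ADISSP 1 than in the mean of ADISSP 2 and 3, with a range from 0.793-fold in Ifi27l2a to 6.4-fold in Mx1. In 20 genes ADISSP 1 was more than 2 times that mean.

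In 26 genes (52%) every ADISSP library lay above every Control library, which held for 26% of all tested genes. In another 15 genes (30%) only ADISSP 1 lay above every Control library, a pattern of 5.05% of all tested genes. Each of the 16 risen genes had ADISSP 2 and ADISSP 3 above every Control library. As these genes were picked by their call on the same libraries, that order adds no separate support. Their level in the mean of ADISSP 2 and 3 was 1.30-fold to 4.81-fold the Control mean, and their level in ADISSP 1 was 1.39-fold to 11.1-fold.

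A fit without ADISSP 1 also called 16 of the 50 genes higher, where 14.3% of all genes were called higher, and the median fell from 0.84 to 0.43. Of these genes, 13 were among the 16 called with all libraries. Oas3, Oasl1 and Gbp2 dropped out, and Ifit1, Ifit3 and Rsad2 came in. Without ADISSP 1 the log2 fold change was below 0 in 15 genes, against 6 with it. No gene of the 50 was called lower without ADISSP 1 in edgeR, where 9.86% of all genes were, and Epsti1 and Sp100 had adjusted p = 0.0828 and 0.08804 there. With all libraries 2 genes fell at an unadjusted p under 0.05, and DESeq2 called 2 lower.

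The count of risen genes moved with the setting, and so did the share of all genes called. Leaving out Control 1 gave 10 risen genes (13% of all genes higher, 9.04% lower), leaving out Control 2 gave 9 (13.7% and 9.75%) and leaving out Control 3 gave 10 (23.8% and 22.8%), with 3 genes lower in the last. Without ADISSP 2 the count was 11 (14% and 10.5%) and without ADISSP 3 it was 21 (15% and 10.4%). DESeq2 called 26 of the 50 genes higher and 2 lower, where 17.5% and 17.2% of all genes were called. Scaling by totals alone called 9 higher and 3 lower (10.2% and 38% of all genes), and a fit with no filter on low counts called 10 and 0 (10.1% and 10.4%). DESeq2 size factors in edgeR (17.7% and 17.1%) and a stricter filter (19.4% and 17.3%) called the same 16 and 2 genes. On TPM, limma called 9 higher and 5 lower with either pseudocount, where 7.44% and 55% of all genes were called with a pseudocount of 1 and 7.38% and 54.7% with 0.1. With the replicate number as a block 24 rose and 2 fell (17% and 15%), and without both ADISSP 1 and Control 3, a setting chosen after seeing the data, 21 rose and 8 fell (23.7% and 21.8%).

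**Figure D2:**
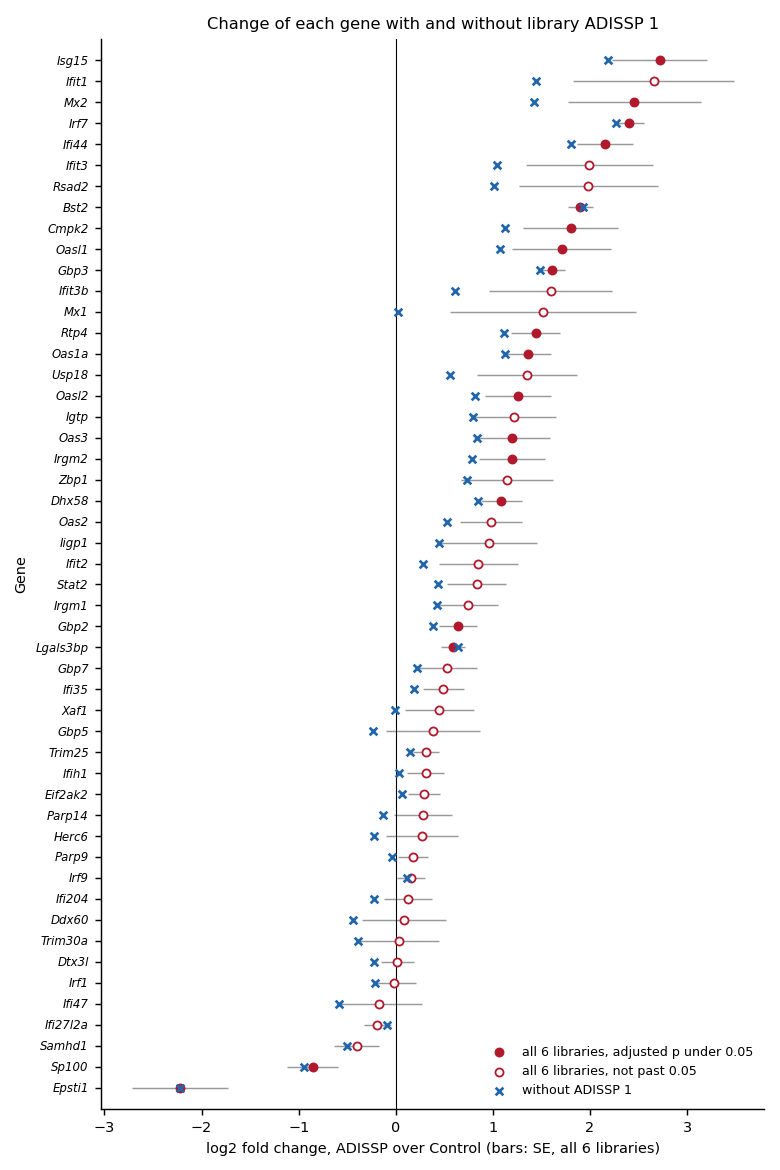
Log2 fold change of each of the 50 genes, ADISSP over Control, with bars for the standard error; filled circles passed an adjusted p of 0.05 with all 6 libraries, open circles did not, and crosses are the values without ADISSP 1. The crosses of Ifit1, Mx1 and Mx2 lie far left of their circles, while those of Bst2 and Lgals3bp do not.

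In depth and mitochondrial share ADISSP 1 was in the middle of its group. Its total of 14336110 counts and its 9.22% of counts from the mitochondrial genome lay between those of ADISSP 2 (10357930 counts, 11.1%) and ADISSP 3 (15658428 counts, 8.43%), and the Control libraries had 3.13% to 4.2%. Summed CPM of 9 macrophage markers was 443 in ADISSP 1, 506 in ADISSP 2 and 366 in ADISSP 3, and that of 4 brown fat cell markers was 4250.3, 4496 and 3801. Summed endothelial markers were lowest in ADISSP 1, at 544 against 608 and 656, and so were fibroblast and progenitor markers, at 670.2 against 955 and 888. T and natural killer cell markers were also lowest there, at 14.2 against 20.6 and 17.95 CPM, and neutrophil markers highest, at 5.77 against 3.64 and 2.2 CPM. The neutrophil sums rest on only 73, 33 and 31 counts in ADISSP 1, 2 and 3, and 2 of the 5 markers could be tested. The part of all these measures in the higher level of the interferon-stimulated genes in ADISSP 1 was not tested.

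The promoters of these genes were read from RefSeq windows of build GRCm38.p6. These windows run from 250 bases before to 50 bases after a start site. The part of promoter motifs in the levels was not tested. Of the 50 genes, 38 had a window. The core of the ISRE was searched on both strands as GAAA, any 2 bases and GAAA again, where matches may overlap each other. It was present for 20 of the 38 genes (52.6%), against 3.99% of all genes with a window. It was found for 7 of the 13 risen genes with a window, for 13 of the 23 genes that did not pass, and for 0 of the 2 that fell. The GAS, searched as TTCNNNGAA on both strands, was present for 11 of the 38 (28.9%), against 9.55% of all genes. A match of letters is a description and does not show binding. The list was named as interferon-stimulated genes, so a share above that of all genes is not a finding of these libraries.

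The stretches below come from the 6 risen genes with the smallest p whose window holds the ISRE core upstream of the start site. Each is written 5′ to 3′ on the gene's strand with the matches in capitals (those that open with TTTC are the core read on the other strand), and each ends at or before the start site.
Bst2 (chr8:71537557-71537632, minus strand): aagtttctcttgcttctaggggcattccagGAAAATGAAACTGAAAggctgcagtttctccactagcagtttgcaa
Gbp3 (chr3:142559969-142560043, plus strand): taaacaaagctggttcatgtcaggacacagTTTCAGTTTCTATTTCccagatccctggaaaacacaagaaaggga
Oas1a (chr5:120907526-120907575, minus strand): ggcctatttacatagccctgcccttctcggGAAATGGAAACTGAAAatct
Isg15 (chr4:156200845-156200926, minus strand): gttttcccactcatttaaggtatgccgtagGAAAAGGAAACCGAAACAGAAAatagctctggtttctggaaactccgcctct
Gbp2 (chr3:142620574-142620643, plus strand): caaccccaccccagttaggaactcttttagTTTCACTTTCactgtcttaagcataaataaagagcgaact
Irgm2 (chr11:58214883-58214952, plus strand): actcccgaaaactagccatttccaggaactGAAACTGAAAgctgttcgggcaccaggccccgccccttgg
In Isg15 3 overlapping matches follow each other, Bst2, Gbp3 and Oas1a hold 2 overlapping ones, and Gbp2 and Irgm2 hold 1. The match farthest upstream begins 130 bases before the start site in Bst2 and 20 bases before it in Oas1a.

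For the IFIT family, chosen after its values were seen because its summed level stood farthest above Control in ADISSP 1 among the role groups, the corresponding stretches are these.
Ifit1 (chr19:34640755-34640843, plus strand): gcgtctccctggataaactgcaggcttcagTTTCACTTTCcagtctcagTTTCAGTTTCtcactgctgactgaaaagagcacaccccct
Ifit3 (chr19:34583343-34583446, plus strand): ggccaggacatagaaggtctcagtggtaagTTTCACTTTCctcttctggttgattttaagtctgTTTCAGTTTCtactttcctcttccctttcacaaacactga
Ifit3b (chr19:34607739-34607842, plus strand): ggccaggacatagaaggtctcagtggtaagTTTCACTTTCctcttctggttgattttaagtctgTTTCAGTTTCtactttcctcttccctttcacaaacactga
Each holds 2 separate matches, and the stretches of Ifit3 and Ifit3b are the same in 104 of 104 bases. The other gene of the family, Ifit2, has no match of the ISRE core in its windows.

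Among the 4 transcription factors of the response, Irf7 rose (25%, where 18.5% of all tested genes did) and the other 3 did not pass. Irf7 is the factor that amplifies type I interferon production and is itself induced by interferon. It stood at 20.4, 19.6 and 20.7 CPM in Control 1, 2 and 3 and 127, 110.5 and 84.2 CPM in ADISSP 1, 2 and 3. The groups did not overlap (log2 fold change 2.41, SE 0.15, adjusted p = 1.45e-05). Without ADISSP 1 the change was 2.26. Irf7 (ENSMUSG00000025498, chromosome 7, 140842619 to 140846394, GRCm39) overlaps Phrf1 on the opposite strand, and as the strand setting is not known their reads may be mixed. Phrf1 itself went from 67.8, 70.7 and 71.3 CPM in Control to 87.2, 82.5 and 83.6 CPM in ADISSP.

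Stat2 and Irf9, subunits of the interferon-activated complex, did not pass. Stat2 stood at 55.5, 53.2 and 42.6 CPM in Control 1, 2 and 3 and 133, 74.5 and 61.95 CPM in ADISSP 1, 2 and 3. All 3 ADISSP libraries were above Control, ADISSP 1 by far the most, and the difference did not pass (log2 fold change 0.83, SE 0.30, adjusted p = 0.0823). For Irf9, the DNA-binding partner of Stat2, the values were 30.5, 29.4 and 22.3 CPM in Control 1, 2 and 3 and 32.03, 32.4 and 27.1 CPM in ADISSP 1, 2 and 3. Its groups overlapped (log2 fold change 0.15, SE 0.15, adjusted p = 0.446). Irf1, a factor induced strongly by interferon gamma, was at 77.6, 84.5 and 52.3 CPM in Control 1, 2 and 3 and 89.05, 63.1 and 60.04 CPM in ADISSP 1, 2 and 3. Control 3 was the lowest Control library and ADISSP 1 the highest of all (log2 fold change -0.02, SE 0.22, adjusted p = 0.965).

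Of the 6 sensors of foreign nucleic acid, 1 rose (16.7%), near the 18.5% of all tested genes, and 5 did not pass. Dhx58, which encodes LGP2, a regulator of the RNA sensors, was at 10.1, 7.91 and 8.39 CPM in Control 1, 2 and 3 and 24.5, 16.7 and 15.04 CPM in ADISSP 1, 2 and 3. Every ADISSP library was above every Control library (log2 fold change 1.09, SE 0.21, adjusted p = 0.00438). Its call was lost on log2(TPM + 1) (limma, adjusted p = 0.0888). Ifih1, the RNA sensor MDA5, was at 38.3, 43.97 and 40.4 CPM in Control 1, 2 and 3 and 68.01, 41.4 and 42.5 CPM in ADISSP 1, 2 and 3, and only ADISSP 1 stood out (log2 fold change 0.31, SE 0.19, adjusted p = 0.245). Eif2ak2, the kinase PKR that halts translation on binding double-stranded RNA, had the same shape with 45.9, 39.9 and 40.6 CPM in Control 1, 2 and 3 and 66.04, 44.6 and 43.6 CPM in ADISSP 1, 2 and 3 (log2 fold change 0.29, SE 0.16, adjusted p = 0.206). Zbp1, a sensor of Z-form nucleic acid, was at 14.2, 14.6 and 6.41 CPM in Control 1, 2 and 3 and 38.9, 25.1 and 14.2 CPM in ADISSP 1, 2 and 3. Its highest values were in ADISSP 1 and 2 while ADISSP 3 fell within the Control range (log2 fold change 1.15, SE 0.47, adjusted p = 0.117). For Ddx60, a helicase, and Ifi204, a DNA sensor of the mouse, the log2 fold changes were 0.08 and 0.13, and -0.44 and -0.23 without ADISSP 1. Of the 50-base words in Ifi204 transcripts, 20% occur in other genes, chiefly Ifi211, so its count is uncertain.

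The IFIT family, whose proteins bind foreign RNA and block its translation, had the highest summed level relative to Control in ADISSP 1 of all role groups. Its 4 genes lie together on chromosome 19, 34528094 to 34627409 (GRCm39). Ifit1 was at 9.0, 6.38 and 5.796 CPM in Control 1, 2 and 3 and 94.9, 22.2 and 16.5 CPM in ADISSP 1, 2 and 3. In ADISSP 1 it was 4.91 times the mean of ADISSP 2 and 3, and those 2 libraries were still above every Control library. Ifit3 stood at 23.7, 20.2 and 20.7 CPM in Control 1, 2 and 3 and 168, 47.97 and 40.9 CPM in ADISSP 1, 2 and 3. Its near copy Ifit3b was at 9.28, 6.76 and 8.18 CPM in Control 1, 2 and 3 and 48.3, 12.5 and 12.2 CPM in ADISSP 1, 2 and 3. Both repeat the order of Ifit1 among the ADISSP libraries. Ifit3 shares 51.2% of its 50-base words with Ifit3b, so their counts may be split between them. Ifit2 was at 21.7, 17.4 and 14.6 CPM in Control 1, 2 and 3 and 53.1, 21.5 and 22.1 CPM in ADISSP 1, 2 and 3. Its ADISSP 2 value fell just below that of Control 1.

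None of the 4 IFIT genes was called by edgeR with all libraries, where 2 had an unadjusted p under 0.05; DESeq2 called 3 higher and limma on log2(TPM + 1) called 1. Ifit1 had a log2 fold change of 2.66 (SE 0.83, adjusted p = 0.0681) and Ifit3 one of 1.99 (SE 0.66, adjusted p = 0.0776). Without ADISSP 1 the changes were smaller and passed, at 1.45 (adjusted p = 0.00522) for Ifit1 and 1.04 (adjusted p = 0.00189) for Ifit3. Ifit2 and Ifit3b did not pass there, at 0.29 and 0.61.

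The OAS family makes or mimics the enzymes that synthesise oligoadenylate, the messenger that activates RNase L. Of its 5 genes 4 rose, where 18.5% of all tested genes did. In all 5 every ADISSP library was above every Control library, which held for 26% of all tested genes. Oas1a was at 5.04, 5.001 and 4.02 CPM in Control 1, 2 and 3 and 15.7, 11.7 and 8.87 CPM in ADISSP 1, 2 and 3 (log2 fold change 1.36, SE 0.24, adjusted p = 0.00281). It kept its call in every fit with 1 library left out, but 57.6% of its 50-base words also occur in Oas1g, so the count is uncertain. Oasl2 was at 19.6, 20.4 and 18.1 CPM in Control 1, 2 and 3 and 70.9, 40.1 and 28.03 CPM in ADISSP 1, 2 and 3 (log2 fold change 1.26, SE 0.34, adjusted p = 0.0315), and Oasl1 at 3.34, 2.91 and 3.55 CPM in Control 1, 2 and 3 and 18.2, 9.81 and 4.05 CPM in ADISSP 1, 2 and 3 (log2 fold change 1.71, SE 0.51, adjusted p = 0.0409). In Oasl1 the ADISSP 3 value was close to the highest Control value. Oas3, at 6.0, 3.68 and 2.25 CPM in Control 1, 2 and 3 and 13.1, 7.28 and 7.03 CPM in ADISSP 1, 2 and 3, rose by 1.195 on the log2 scale (SE 0.39, adjusted p = 0.0458). Oas2, which did not pass, was at 14.3, 11.4 and 12.3 CPM in Control 1, 2 and 3 and 38.5, 19.9 and 16.6 CPM in ADISSP 1, 2 and 3 (log2 fold change 0.98, SE 0.32, adjusted p = 0.0515).

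Calls in this family depended on which libraries were fitted. Oas3 lost its call without ADISSP 1, 2 or 3 or Control 2, and Oasl1 without ADISSP 1 or 2 or any 1 Control library, with adjusted p up to 0.148 and 0.134. Oasl2 lost it without ADISSP 2 or any 1 Control library (adjusted p up to 0.105).

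**Figure D3:**
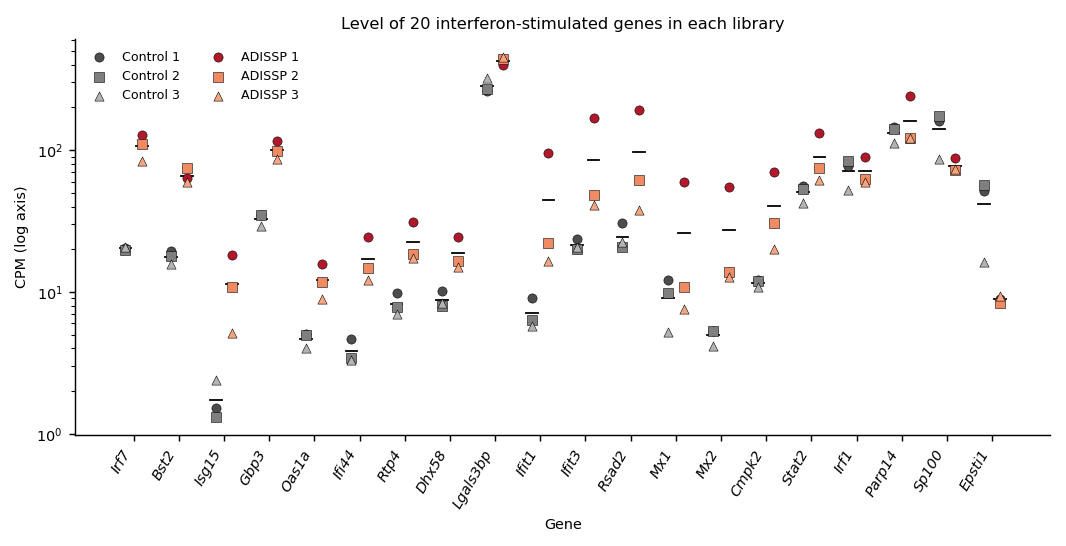
CPM on a log axis of 20 of the genes in each library, with black lines for the group means of 3 libraries; grey symbols are Control and red or orange symbols are ADISSP. Irf7, Bst2 and Gbp3 form tight ADISSP groups above Control, Mx1, Ifit1 and Rsad2 have ADISSP 1 far above ADISSP 2 and 3, and Epsti1 is lower in ADISSP.

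Among the antiviral effectors, Bst2 rose evenly in the 3 ADISSP libraries. Bst2 encodes tetherin, which holds budding virus at the cell surface. It stood at 19.5, 17.9 and 15.7 CPM in Control 1, 2 and 3 and 63.3, 75.1 and 59.9 CPM in ADISSP 1, 2 and 3. ADISSP 2 and not ADISSP 1 was the highest (log2 fold change 1.90, SE 0.13, adjusted p = 1.76e-05). Leaving out ADISSP 1 gave a change of 1.93. The identifier and position of Bst2 are ENSMUSG00000046718, chromosome 8, 71986899 to 71990100, GRCm39.

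The other effectors that rose were highest in ADISSP 1. Mx2, a dynamin-like GTPase, was at 5.32, 5.33 and 4.16 CPM in Control 1, 2 and 3 and 54.96, 13.8 and 12.7 CPM in ADISSP 1, 2 and 3 (log2 fold change 2.46, SE 0.69, adjusted p = 0.0453). It lost its call without any 1 Control library (adjusted p up to 0.1499). Cmpk2, a mitochondrial nucleotide kinase, was at 12.1, 11.98 and 10.8 CPM in Control 1, 2 and 3 and 70.5, 30.9 and 20.2 CPM in ADISSP 1, 2 and 3 (log2 fold change 1.80, SE 0.49, adjusted p = 0.0383). Its call was lost without ADISSP 2 or any 1 Control library (adjusted p up to 0.129). Rsad2, which encodes viperin and is the neighbour of Cmpk2 within 37.1 kb of chromosome 12, stood at 30.8, 20.6 and 22.4 CPM in Control 1, 2 and 3 and 192, 61.6 and 37.6 CPM in ADISSP 1, 2 and 3. Its ADISSP libraries had the order of those of Cmpk2, and the difference did not pass (log2 fold change 1.98, SE 0.72, adjusted p = 0.1004).

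Mx1, related to Mx2 and nonfunctional in many laboratory mouse strains, was at 12.2, 9.78 and 5.18 CPM in Control 1, 2 and 3 and 59.2, 10.9 and 7.59 CPM in ADISSP 1, 2 and 3. Only ADISSP 1 left the Control range, and the change without it was 0.02 in place of 1.51. Samhd1, which depletes nucleotides, was at 201, 207 and 112 CPM in Control 1, 2 and 3 and 148, 130.2 and 115 CPM in ADISSP 1, 2 and 3 and did not pass (log2 fold change -0.40, SE 0.24, adjusted p = 0.228). Control 3 lay below every ADISSP value, and without it Samhd1 was called lower, as it was on log2(TPM + 1) (-0.92, limma, adjusted p = 0.0189). Of all genes, 22.8% were called lower without Control 3 and 55% on that TPM scale.

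In the ISG15 system, in which the ubiquitin-like Isg15 is attached to other proteins, Isg15 itself rose. Isg15 was at 1.53, 1.32 and 2.39 CPM in Control 1, 2 and 3 and 18.3, 10.8 and 5.18 CPM in ADISSP 1, 2 and 3. The groups did not overlap, with ADISSP 3 the lowest ADISSP library (log2 fold change 2.72, SE 0.49, adjusted p = 0.005599). Its log2 fold change had the highest value of the 50 genes with all libraries; without ADISSP 1 it was 2.19, below the 2.26 of Irf7. The identifier and position of Isg15 are ENSMUSG00000035692, chromosome 4, 156283912 to 156285253, GRCm39. Usp18, the protease that removes Isg15 and dampens interferon signalling, was at 8.55, 6.98 and 6.41 CPM in Control 1, 2 and 3 and 34.4, 10.3 and 11.3 CPM in ADISSP 1, 2 and 3 and did not pass (log2 fold change 1.35, SE 0.51, adjusted p = 0.0931). Herc6, the ligase that attaches Isg15 in the mouse, was at 25.6, 20.2 and 15.1 CPM in Control 1, 2 and 3 and 38.4, 18.1 and 16.7 CPM in ADISSP 1, 2 and 3, with only ADISSP 1 above Control (log2 fold change 0.27, SE 0.37, adjusted p = 0.621). Trim25, a ubiquitin ligase that activates RNA sensing, was at 75.7, 70.8 and 67.99 CPM in Control 1, 2 and 3 and 108, 81.8 and 76.9 CPM in ADISSP 1, 2 and 3 (log2 fold change 0.31, SE 0.13, adjusted p = 0.0954). There every ADISSP library exceeded every Control library, ADISSP 3 by a small margin.

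Of the 9 interferon-inducible GTPases, which attack the vacuoles of intracellular pathogens, 3 rose, where 18.5% of all tested genes did. Gbp3 was at 34.9, 34.7 and 29.2 CPM in Control 1, 2 and 3 and 116, 99.03 and 86.01 CPM in ADISSP 1, 2 and 3. Its ADISSP libraries lay close together and far above Control (log2 fold change 1.61, SE 0.13, adjusted p = 4.39e-05). Gbp2 was at 81.7, 66.8 and 66.3 CPM in Control 1, 2 and 3 and 149, 91.8 and 94.5 CPM in ADISSP 1, 2 and 3 (log2 fold change 0.64, SE 0.20, adjusted p = 0.0403), and lost its call without ADISSP 1 or any 1 Control library (adjusted p up to 0.132). The neighbours Gbp2, Gbp3, Gbp5 and Gbp7 share 144 kb of chromosome 3. Gbp5 and Gbp7 had log2 fold changes of 0.38 and 0.52 that did not pass, and -0.23 and 0.22 without ADISSP 1.

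Of the immunity-related GTPases, Irgm2 rose. Irgm2 was at 56.3, 42.8 and 35.1 CPM in Control 1, 2 and 3 and 153, 79.95 and 74.6 CPM in ADISSP 1, 2 and 3 (log2 fold change 1.19, SE 0.34, adjusted p = 0.0419), with a call lost without ADISSP 2 or any 1 Control library. Igtp was at 26.4, 23.96 and 11.5 CPM in Control 1, 2 and 3 and 72.2, 37.3 and 34.4 CPM in ADISSP 1, 2 and 3 and did not pass (log2 fold change 1.22, SE 0.44, adjusted p = 0.0845). Its groups did not overlap, with Control 3 lowest and ADISSP 1 highest. Igtp and Irgm2 overlap on the same strand, and 11.8% of the 50-base words of Igtp occur in Irgm2, so both counts are uncertain. Iigp1 was at 107, 65.9 and 44.7 CPM in Control 1, 2 and 3 and 225, 107 and 91.6 CPM in ADISSP 1, 2 and 3 and did not pass (log2 fold change 0.96, SE 0.50, adjusted p = 0.205). Irgm1 and Ifi47 had log2 fold changes of 0.74 and -0.17, neither past the threshold, with 0.43 and -0.58 without ADISSP 1.

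The PARP and Deltex genes, Parp9, Parp14 and Dtx3l, encode ADP-ribosylation enzymes and a partner ubiquitin ligase and lie within 140 kb of chromosome 16. None was called by edgeR, 0 had an unadjusted p under 0.05 and DESeq2 called 0. On log2(TPM + 1) limma called Dtx3l lower, where 55% of all genes were called lower and their median was -0.51. Parp14 was at 147, 141 and 112 CPM in Control 1, 2 and 3 and 241, 121 and 122 CPM in ADISSP 1, 2 and 3 (log2 fold change 0.28, SE 0.30, adjusted p = 0.516). Dtx3l was at 86.2, 88.4 and 86.7 CPM in Control 1, 2 and 3 and 115, 71.2 and 77.8 CPM in ADISSP 1, 2 and 3 (log2 fold change 0.01, SE 0.17, adjusted p = 0.955). In all 3 genes ADISSP 1 alone was above every Control library, and the changes without it were -0.04, -0.13 and -0.22. Parp9 and Dtx3l overlap on opposite strands.

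**Figure D4:**
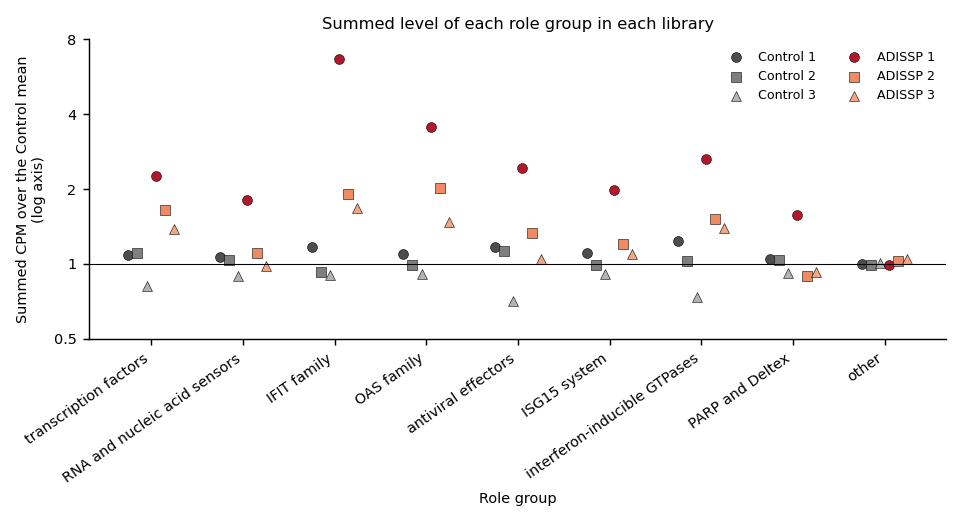
Summed CPM of each role group in each library divided by the mean of the 3 Control libraries, on a log axis. ADISSP 1 is the highest library in every group but the last, reaching its highest ratio in the IFIT family, and in the PARP and Deltex group ADISSP 2 and 3 lie under 1.

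Among the 9 remaining genes, 3 rose and 2 fell, where 18.5% and 16.5% of all tested genes did. Ifi44 was at 4.698, 3.41 and 3.34 CPM in Control 1, 2 and 3 and 24.4, 14.7 and 12.1 CPM in ADISSP 1, 2 and 3. All ADISSP libraries were well above Control (log2 fold change 2.15, SE 0.29, adjusted p = 8.59e-04). Rtp4, a chaperone of receptors at the membrane, was at 9.79, 7.86 and 7.02 CPM in Control 1, 2 and 3 and 31.3, 18.5 and 17.2 CPM in ADISSP 1, 2 and 3 (log2 fold change 1.44, SE 0.25, adjusted p = 0.00343). Rtp4 overlaps Masp1 on the opposite strand, whose level was at most 2.59 CPM in any library. Lgals3bp, a secreted glycoprotein that binds galectin-3, was at 262, 269 and 323 CPM in Control 1, 2 and 3 and 396, 437 and 451 CPM in ADISSP 1, 2 and 3 (log2 fold change 0.59, SE 0.12, adjusted p = 0.00597). In CPM, ADISSP 1 was the lowest of the ADISSP libraries and the groups did not overlap. In TPM they did overlap, with 393, 421 and 450.2 TPM in Control 1, 2 and 3 and 395, 414 and 467 TPM in ADISSP 1, 2 and 3. The log2 fold change of Lgals3bp was 0.24 with scaling by totals (adjusted p = 0.0641) and 0.01 on log2(TPM + 1) (limma, adjusted p = 0.921), so its call rests on the TMM or DESeq2 scaling.

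The genes that fell had Control 3 well below Control 1 and 2. Epsti1, named for its induction where epithelial and stromal cells meet, stood at 51.1, 57.2 and 16.3 CPM in Control 1, 2 and 3 and 8.86, 8.38 and 9.37 CPM in ADISSP 1, 2 and 3 (log2 fold change -2.23, SE 0.50, adjusted p = 0.0208). The ADISSP libraries were tightly grouped below every Control library, an order seen in 1 of the 50 genes and in 23.8% of all tested genes. Sp100, a nuclear body protein named here after its value was seen, was at 161, 175 and 86.6 CPM in Control 1, 2 and 3 and 87.5, 72.5 and 73.6 CPM in ADISSP 1, 2 and 3 (log2 fold change -0.86, SE 0.26, adjusted p = 0.0463). Its Control 3 value fell between those of the ADISSP libraries. Leaving out ADISSP 1, 2 or 3 or Control 1 or 2 ended each call, with adjusted p up to 0.0828 for Epsti1 and 0.143 for Sp100.

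The remaining genes of the group did not pass with TMM scaling. Ifi27l2a had the highest length-scaled level of the 50 genes in each group, at 4871 TPM in Control and 2867 TPM in ADISSP. In CPM it was at 519, 480.2 and 608 CPM in Control 1, 2 and 3 and 399, 494 and 513 CPM in ADISSP 1, 2 and 3 (log2 fold change -0.19, SE 0.14, adjusted p = 0.316), and ADISSP 1 was its lowest library. Ifi27l2a was called lower with scaling by totals (-0.54, adjusted p = 0.00681) and on log2(TPM + 1) (-0.77, limma, adjusted p = 0.00956). Of all genes, 38% were called lower with scaling by totals and 55% on that TPM scale. Ifi35, Xaf1 and Trim30a had log2 fold changes of 0.49, 0.45 and 0.04, and 0.19, -0.01 and -0.39 without ADISSP 1. By mean TPM in Control the next highest genes were Lgals3bp at 421 TPM, Gbp2 at 121 TPM and Bst2 at 83.1 TPM.

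The rest of the interferon pathway was called about as often as genes in general. Of 95 other pathway genes tested, 19 (20%) rose and 15 (15.8%) fell, shares near the 18.5% and 16.5% of all tested genes, with a median log2 fold change of 0.01. Ligands were looked up for the listed genes only, and these had few or no counts in these libraries. Of 11 interferon genes listed, 9 had 0 counts in all 6 libraries, where 3 counts would be 0.165 to 0.331 CPM. Ifnz had 1 count, in ADISSP 1. Ifng, which encodes interferon gamma, had 7, 10 and 1 counts in Control 1, 2 and 3 and 2, 3 and 1 counts in ADISSP 1, 2 and 3, too few to be tested.

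Among receptors and kinases only Ifngr2 and Jak1 passed. Those are 16.7% of the receptor genes and 20% of the kinase and STAT genes, near the 16.5% of all tested genes called lower. Of 6 receptor genes 1 fell, Ifngr2, at 40.4, 39.2 and 42.5 CPM in Control 1, 2 and 3 and 33.5, 31.98 and 32.8 CPM in ADISSP 1, 2 and 3 (log2 fold change -0.31, SE 0.09, adjusted p = 0.0293), and of 5 kinase and STAT genes 1 fell, Jak1, at 294, 325 and 254 CPM in Control 1, 2 and 3 and 229, 217 and 225 CPM in ADISSP 1, 2 and 3 (log2 fold change -0.38, SE 0.11, adjusted p = 0.0315). Leaving out ADISSP 1, 2 or 3 or Control 1 or 2 ended each of these calls. Il10rb and Ifnar1 had log2 fold changes of -0.66 and -0.28, and Jak2 and Tyk2 had -0.36 and -0.10, none past the threshold with all libraries. In the fit without ADISSP 1, 1 of the 5 kinase and STAT genes was called lower, where 9.86% of all genes were.

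Upstream sensors and adaptors moved in both directions, 3 up and 3 down among 11 tested (27.3% each, against 18.5% and 16.5% of all tested genes). Tlr7, an RNA receptor of endosomes, was at 16.8, 17.5 and 12.96 CPM in Control 1, 2 and 3 and 4.35, 5.07 and 5.96 CPM in ADISSP 1, 2 and 3 (log2 fold change -1.62, SE 0.19, adjusted p = 3.65e-04), and Tlr9, its DNA-sensing relative, fell by 1.43 (adjusted p = 0.00958). Both are expressed in B cells and plasmacytoid dendritic cells, and the part of any cell type in their fall was not tested. Mavs, the mitochondrial adaptor of the RNA sensors, rose, with 38.9, 39.1 and 49.98 CPM in Control 1, 2 and 3 and 80.9, 79.2 and 77.8 CPM in ADISSP 1, 2 and 3 (log2 fold change 0.89, SE 0.11, adjusted p = 5.53e-04). The ADISSP values of Mavs lay within a narrow band. The other genes that changed were Myd88 (0.60) and Ticam1 (0.45), which rose, and Sting1 (-1.10), which fell although its groups overlapped. Myd88 and Ticam1 were at or below 0 on log2(TPM + 1), where the median of all genes was -0.51. The call of Sting1 was lost without ADISSP 2 or 3 or Control 1 or 2, that of Ticam1 without ADISSP 1 or 2 or Control 1 or 2, and that of Myd88 without ADISSP 1 or Control 1.

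Among other interferon regulatory factors, Irf5 (-0.91) and Irf8 (-1.21) fell, of which Irf8 is a factor of myeloid and B cells. Both calls were lost without ADISSP 1 or 3 or Control 1 or 2. Irf3, which rose by 0.33, was -0.24 on log2(TPM + 1), where the median of all genes was -0.51. The call of Irf3 was lost without ADISSP 1, 2 or 3 or Control 1. Among 8 negative regulators tested, Nlrx1 rose by 0.92 (adjusted p = 0.00323) while Pias1 (-0.47) and Ptpn6 (-1.87) fell. That makes 12.5% higher and 25% lower, against 18.5% and 16.5% of all tested genes. Leaving out 1 library ended the call of Ptpn6 in all fits but that without Control 3, and that of Pias1 in those without ADISSP 1 or 3 or Control 1 or 2. On log2(TPM + 1) Nlrx1 stood at 0.33 and did not pass (limma, adjusted p = 0.0847).

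In the list of 60 other interferon-induced genes tested, 14 (23.3%) rose and 5 (8.33%) fell, against 18.5% and 16.5% of all tested genes. Lgals9, which encodes galectin-9, was at 41.3, 40.5 and 37.6 CPM in Control 1, 2 and 3 and 137, 118 and 115 CPM in ADISSP 1, 2 and 3 (log2 fold change 1.63, SE 0.10, adjusted p = 1.49e-05). Gbp10 stood at 4.75, 2.86 and 2.52 CPM in Control 1, 2 and 3 and 34.2, 20.95 and 17.7 CPM in ADISSP 1, 2 and 3 (log2 fold change 2.84, SE 0.33, adjusted p = 7.60e-04), and Ifitm3, which blocks virus entry, at 40.98, 43.5 and 42.8 CPM in Control 1, 2 and 3 and 80.03, 78.5 and 64.8 CPM in ADISSP 1, 2 and 3 (log2 fold change 0.81, SE 0.10, adjusted p = 5.89e-04). These 3 had the smallest p of the list and kept their calls in each fit with 1 library left out, but Ifitm3 did not pass on log2(TPM + 1) (0.22, limma, adjusted p = 0.0768). Without ADISSP 1, 10 of the 60 rose and 3 fell, where 14.3% and 9.86% of all genes did.

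**Figure D5:**
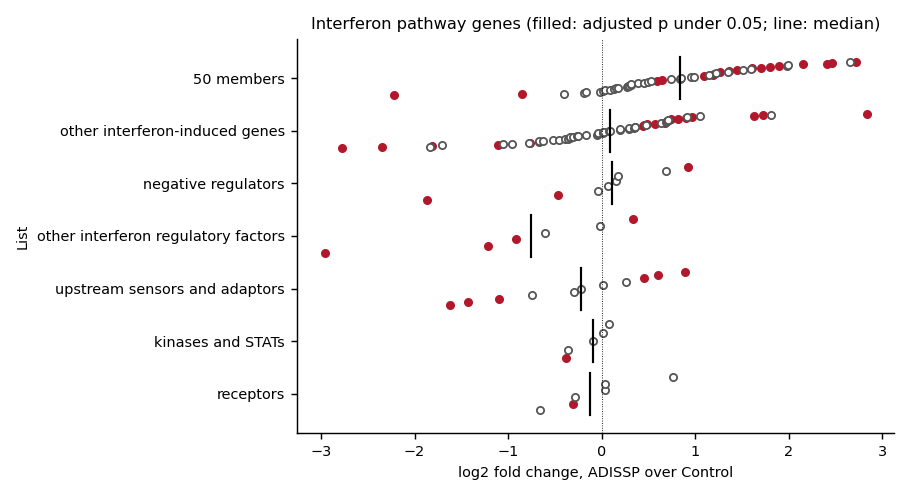
Log2 fold change of each gene, ADISSP over Control, in the 6 lists of other pathway genes with tested members and in the 50 interferon-stimulated genes; filled points passed an adjusted p of 0.05 and black lines are medians. The median of the 50 genes is 0.84, and the medians of the other lists lie between -0.76 and 0.11.

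Markers of other cell types differed between the groups beside these genes. Across all tested genes, 18.5% rose and 16.5% fell. All 9 macrophage markers fell, from a summed 816 to 935 CPM in Control to 366 to 506 CPM in ADISSP, and all 7 B cell markers fell, from 76.7 to 401 CPM to 3.88 to 6.53 CPM. Of 8 T and natural killer cell markers 6 fell, from 39.4 to 169 CPM to 14.2 to 20.6 CPM. The 3 tested markers of plasmacytoid dendritic cells, which are major producers of type I interferon, also fell, the 5 listed going from 11.1 to 61.1 CPM to 2.93 to 3.20 CPM, with Klk1 at 0 in Control 3 and in every ADISSP library. Siglech, 1 of these markers, had 180, 164 and 28 counts in Control 1, 2 and 3 and 11, 6 and 12 counts in ADISSP 1, 2 and 3. All 4 tested markers of lymph node stroma and vessels fell, the 5 listed going from 20.5 to 100.1 CPM to 1.28 to 2.21 CPM, with Glycam1 and Madcam1 at 0 in every ADISSP library. Of the fibroblast and progenitor markers 3 of 5 fell, from 1406 to 1488 CPM to 670.2 to 955 CPM, and of the endothelial markers 2 of 5 fell, from 767 to 828 CPM to 544 to 656 CPM. Among conventional dendritic cell markers 2 of 5 fell, 0 of 2 tested neutrophil markers passed, and 1 of 5 fat cell markers, Pparg, and 1 of 5 muscle markers, Myh1, rose. All 4 brown fat cell markers rose, from 96.2 to 169.7 CPM to 3801 to 4496 CPM. In whole tissue, fewer cells of a type and less RNA per cell cannot be told apart.

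Control 3 held the lowest B cell sum of the Control libraries and was also the lowest of them in 35 of the 50 interferon-stimulated genes (70%), against 40.5% of all tested genes. Its summed skeletal muscle markers were 7417 CPM, against 28.4 and 34.8 CPM in Control 1 and 2 and 2569 to 2947 CPM in ADISSP. Without Control 3, 10 of the 50 genes rose and 3 fell, with a median of 0.70. The part of these cell types in the changes of the interferon-stimulated genes was not tested.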

How the data were processed

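RNA from inguinal white fat was extracted with TRIzol, depleted of ribosomal RNA and sequenced on a NovaSeq X, per the labels' protocols. Per the submitters' processing notes the authors used STAR and featureCounts on mm39 (GRCm39). Their versions, annotation release and strand setting: not given in the sources used here. Counts per gene, whole and not scaled, were deposited for 57180 genes, and the deposited TPM table, scaled by the authors to gene length, holds 23524. The FPKM table was not used, and 0 value columns were unmapped.

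In R 4.3.3, edgeR 4.0.16 filtered genes with filterByExpr (17320 left), applied TMM factors and ran the robust quasi-likelihood test on 3 against 3 libraries without covariates. The SE is the log2 fold change divided by the square root of F. Alternatives used DESeq2 1.42.0 and limma 3.58.1 (on TPM with pseudocounts 1 and 0.1). The test was tried on simulated counts. The 50 genes and all lists were chosen with earlier results of these data known. Genes given in full are, per role group, up to 4 changed genes with the smallest p, or the 2 of highest CPM where fewer than 2 changed, and a fixed list of 14 central genes. Other members are given to complete the 50, and each pathway list is represented by genes with the smallest p; pathway genes beyond 3 per list were named after their values were seen. Counting words of 50 bases shared between transcripts used GENCODE M21 (GRCm38). That libraries came from separate mice rests on the protocol's word triplicates. Floors of 3 counts cover counting error only. Some pathway genes are not reported here.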

Additional observations from a re-analysis of the deposited data

How the results depend on the processing

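Counts below are of the 50 genes at an adjusted p under 0.05, and the cause of each difference was not tested. Leaving out a library changes the values and also leaves fewer libraries to the test. Genes higher in ADISSP numbered 16 with all libraries in edgeR, 9 with library totals, 26 with DESeq2, 10 with no filter on low counts, and 9 on log2(TPM + 1) and on log2(TPM + 0.1). Leaving out 1 library gave 9 to 21. Genes lower numbered 2, with 0 without the filter, 5 on either TPM scale, and 0 to 3 with 1 library left out. The median log2 fold change of 0.84 was 0.16 on log2(TPM + 1) and 0.17 on log2(TPM + 0.1), or 0.67 and 0.75 above the median of all genes, and 0.43 to 1.05 with 1 library left out. All genes changed numbered 6058, and 10811 and 10746 on the TPM scales, with 3820 to 8073 leaving out 1 library. Other pathway genes changed numbered 34, with 18 to 51 leaving out 1 library. Without both ADISSP 1 and Control 3, an alternative added after seeing the data, 21 genes were higher and 8 lower, the median was 0.28 and 58 pathway genes changed. There Ddx60 (-0.68), Gbp5 (-0.46) and Trim30a (-0.65) were called lower, against -0.44 to 0.33, -0.23 to 0.62 and -0.39 to 0.26 with 1 library left out. On log2(TPM + 1) and log2(TPM + 0.1) Dtx3l was called lower (-0.59 and -0.60, against -0.22 to 0.14). On those scales 55% and 54.7% of all genes were called lower, and the median of all genes was -0.51 and -0.58. Lgals3bp lost its call with library totals and on either TPM scale, and Ifi27l2a was called lower there. DESeq2 size factors and a stricter filter changed no call.

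Same-numbered libraries share only a number: their deviations from the group means correlated at 0.03, 0.08 and 0.05 over 17320 genes, although each library correlated best with its own number. With the replicate number as a block, 24 genes were higher and 2 lower, against 16 and 2.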
